A study of Mus musculus with 17 samples.

Results

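The synaptic vesicle release machinery was taken as the protein-coding mouse genes of 9 families, chosen by symbol alone: the numbered synaptotagmins (Syt), the complexins Cplx1 to Cplx4, Rab3a to Rab3d, the SNARE genes of the Stx1, Snap25 and numbered Vamp families, the synapsins Syn1 to Syn3, Sv2a to Sv2c, the Munc13 genes Unc13a to Unc13d, Rims1 to Rims4 and the numbered Stxbp genes. The rule found 54 genes among the 78298 gene identifiers of each deposited table, on 18 chromosomes. They were 17 synaptotagmins, 9 SNARE genes, 6 Stxbp genes, 4 complexins, 4 Rab3, 4 Munc13 and 4 RIM genes, 3 synapsins and 3 Sv2 genes. The rule uses symbols only, but it was chosen with earlier results of these data known.

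The data are bulk RNA sequencing of mouse dorsal root ganglia at lumbar levels L4 to L6, which house the cell bodies of the sensory neurons of the hind limb. There were 5 sham-operated wild-type libraries, 5 from wild type with a chronic constriction injury (CCI), in which the sciatic nerve is loosely tied, 4 sham libraries labelled KO and 3 CCI libraries labelled KO. KO stands for knockout of Twik1, the potassium channel encoded by Kcnk1, and all 17 libraries carry the label day 30. The sources used here do not give strain, age, sex, the deleted part of Kcnk1 or whether each library is a separate animal, so each p-value reflects spread between libraries that may be technical.

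A neuron releases transmitter when a docked vesicle fuses with the cell membrane. The fusion is driven by SNARE proteins: Vamp on the vesicle zips up with syntaxin and Snap25 on the target membrane. The Munc13 proteins help to assemble this complex, complexins clamp and assist it, and several synaptotagmins sense the calcium that triggers it. Rab3 and RIM proteins tether vesicles at the active zone, synapsins hold the reserve pool, and SV2 is a glycoprotein of the vesicle membrane. In sensory neurons the proteins are made in the ganglion and carried to central terminals in the spinal cord and to peripheral endings, so transcript levels in the ganglion are levels at the site of synthesis.

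Libraries held 52.5 to 73.6 M counts (M, mega) assigned to genes. Kcnk1, the targeted gene, stood at 127.0 ± 18.9 counts per M of scaled library size (CPM; SD, n = 5) in sham wild type, 114.3 ± 6.83 (n = 5) in CCI wild type, 89.8 ± 18.01 (n = 4) in sham KO and 83.9 ± 5.36 (n = 3) in CCI KO. Gene-level counts cannot show which part of Kcnk1 was removed, and the genotype is therefore called knockout-labelled. Markers of sensory neurons were present in every library, with a summed level of 12898 to 17650 CPM over 10 genes. Libraries 1 and 2 of the sham knockout-labelled group stood apart: the nerve-injury gene Atf3 was at 140.6 and 103.3 CPM in them, against 11.1 and 13.2 CPM in libraries 3 and 4 and 9.42 to 16.8 CPM in sham wild type. Library 5 of the sham wild-type group held 143.1 CPM of spinal cord glia markers, against 10.2 to 41.8 CPM in the other 16. A number in the table names is the same for the 9 sham libraries and takes a different value in either CCI group. What it means is not stated. Should it be a batch, batch and group cannot be told apart in comparisons that involve CCI.

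Transcripts of the release machinery took 1.04 to 1.22% of all gene counts. Levels of different genes are compared only as CPM per kilobase of merged exons (CPM per kb), averaged over the 17 libraries. On that scale 6 members reached at least 100 CPM per kb. They were Cplx1 (297 CPM per kb), Vamp2 (242), Rab3a (219.8), Syt11 (194), Snap25 (179) and Syn1 (172). They make up the core of the fusion apparatus: a complexin, 2 SNAREs, the vesicle GTPase and a synapsin, together with Syt11, a synaptotagmin that lacks calcium binding. In all, 24 members reached 10 CPM per kb and 41 reached 1 CPM per kb.

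In several families a single member carried most of the signal. Among complexins Cplx1 stood at 297 and Cplx2 at 14.6 CPM per kb. Cplx3 and Cplx4, complexins known from the retina, held 52 and 22 counts in all 17 libraries together and were not tested. Among synapsins Syn1 (172 CPM per kb) stood above Syn2 (16.4) and Syn3 (0.198). Among RIM genes Rims3, a short form that lacks the Rab3-binding domain, stood at 19.6 CPM per kb, above Rims1 (3.27) and Rims2 (3.25), the long scaffold forms, and Rims4 (1.03). The Munc13 genes were low per length, from 0.558 (Unc13d) to 3.41 CPM per kb (Unc13a). The order of means says nothing of protein amounts, and Unc13a, Unc13c, Rims1 and Rims2 lie too close to be ranked by it.

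The synaptotagmins spread most widely. After Syt11 came Syt4 (88.1 CPM per kb), another form that does not bind calcium in the way of the release sensors, then Syt9 (36.3) and Syt5 (25.2). The classic fast calcium sensors Syt1 and Syt2 stood at 16.2 and 14.9 CPM per kb, beside Syt3 (14.2) and Syt6 (14.0). Syt7, the sensor of slow release, stood at 8.20 CPM per kb. Syt12, Syt14, Syt15, Syt16, Syt17 and Syt13 ranged from 0.230 to 1.46 CPM per kb. Syt10 stood at 0.0212 CPM per kb, and Syt8, with 12 counts in all, was not tested. Thus 51 of the 54 members passed the filter on low counts, and the other 3 were near the detection limit in every group.

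**Figure D1:**
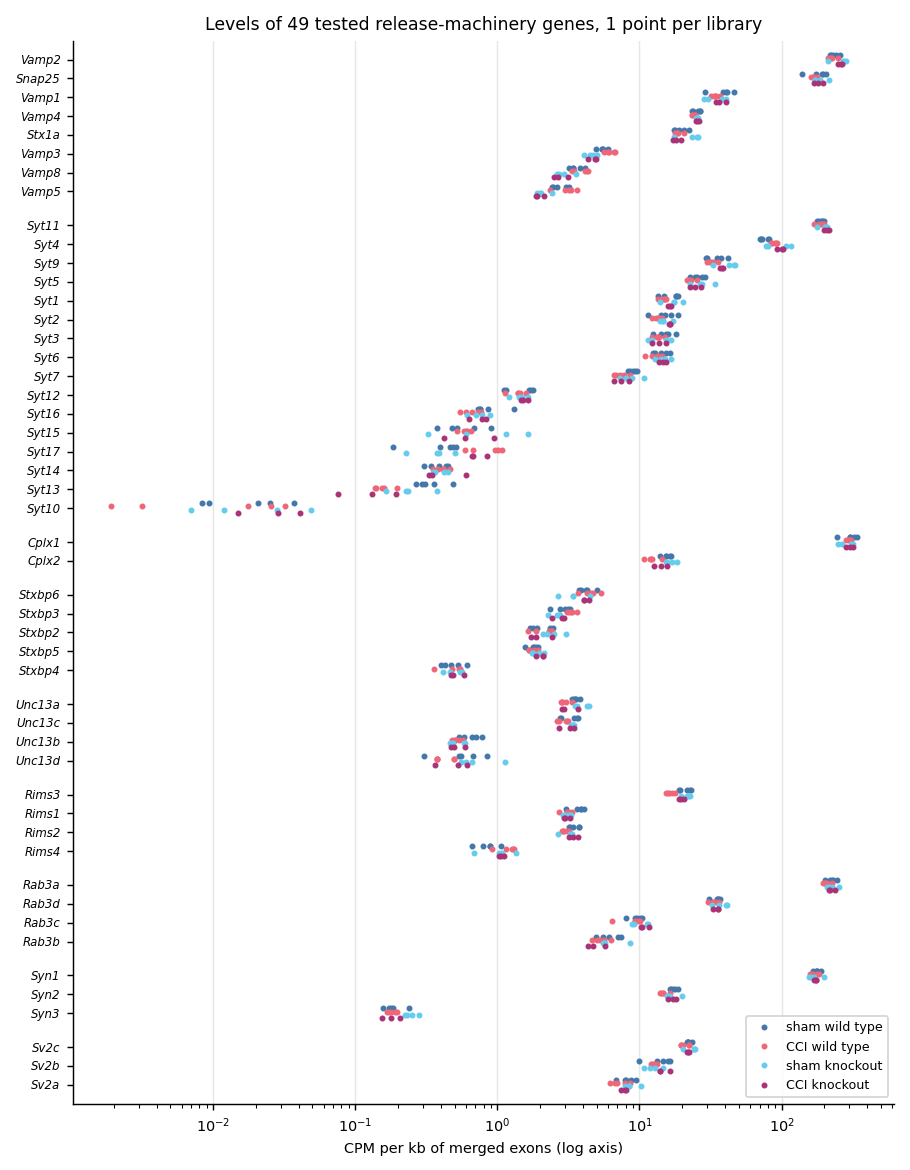
Level of 49 of the 51 tested members as CPM per kb of merged exons on a log axis, 1 point per library, coloured by group and ordered by family and level. The 6 members from Cplx1 to Syn1 lie near or above 100 CPM per kb, while Syt13, Syn3 and Syt10 lie below 1, and the spread between groups is small beside the spread between genes.

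The first question is what CCI did to the machinery in wild type. At an adjusted p under 0.05, 5 of 51 members changed, 4 lower (Rims3, Cplx2, Syn2 and Syt13) and 1 higher (Syt17). This is 9.80% of the members, where 3.06% of all 23972 tested genes were called in either direction, 2.34% higher and 0.713% lower. The groups of libraries did not overlap for 5 members (Rims3, Syn2, Syt13, Syt17 and Syt4), beside 4.84% of all tested genes. The abundant core genes were not among them, and Rims3, Cplx2 and Syn2 fell by 22.1, 21.4 and 15.2%. Over all 51 members the median log2 fold change was −0.09, beside −0.01 over all tested genes, and 37 members had a negative sign. A change in bulk tissue does not tell fewer cells of a type from less RNA per cell.

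Beside these changes, the 10 sensory neuron markers held 1 call, Tubb3 higher, and a summed level of 12898 to 17650 CPM in sham and 14807 to 16071 CPM in CCI wild type. Of 6 satellite glia markers 3 were higher, with sums of 554 to 702 CPM in sham and 774 to 850.5 CPM after CCI. Of 8 macrophage markers 4 were higher, with sums of 33.7 to 56.4 and 47.7 to 95.5 CPM. No marker of the 3 lists was at 0 throughout. All 12 listed genes of the axon injury response were higher in the wild-type CCI libraries. The part of these cell markers in the changes of the release genes was not tested.

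Rims3 lies on GRCm39 chr4:120711977-120753780 and Cplx2 on chr13:54519154-54531730, both on the plus strand. The 250 bases upstream of the annotated start of each are shown because these were the falls of smallest p, and because the stretches differ in composition. Capitals mark the GC box, GGGCGG or its reverse complement CCGCCC. The Rims3 stretch (chr4:120711727-120711976, plus strand) has 58.8% G and C, and GC boxes that begin 45 and 30 bases before the start. The Cplx2 stretch (chr13:54518904-54519153, plus strand) has 52.4% G and C and no GC box, and ends in a 36-base run of alternating G and A.
Rims3: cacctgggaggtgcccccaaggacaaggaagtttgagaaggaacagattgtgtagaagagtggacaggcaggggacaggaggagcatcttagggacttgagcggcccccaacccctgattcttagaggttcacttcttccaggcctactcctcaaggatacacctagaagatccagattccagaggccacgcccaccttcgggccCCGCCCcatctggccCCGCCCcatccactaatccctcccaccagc
Cplx2: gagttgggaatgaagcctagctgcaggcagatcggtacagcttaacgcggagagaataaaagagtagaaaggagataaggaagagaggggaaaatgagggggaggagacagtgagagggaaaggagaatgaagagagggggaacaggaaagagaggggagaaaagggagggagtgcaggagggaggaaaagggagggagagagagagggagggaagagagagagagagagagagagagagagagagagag

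Rims3 encodes the short RIM described above, and is the most abundant RIM transcript here per length. Rims3 was at 152.0, 181.0, 185.6, 172.3 and 154.6 CPM in the sham wild-type libraries 1 to 5. In the CCI wild-type libraries 1 to 5 it was at 122.7, 128.1, 142.0, 136.1 and 129.5 CPM. Every CCI library lay below every sham library. The mean fell from 169 ± 15.2 to 132 ± 7.47 CPM (SD, n = 5 each), which is −0.36 ± 0.06 as log2 fold change (SE; edgeR adjusted p = 0.000887).

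Cplx2 encodes the complexin that is the minor form here per length. Sham wild-type libraries held 69.3, 82.8, 76.3, 75.9 and 81.6 CPM. The CCI wild-type libraries held 60.3, 58.8, 71.0, 53.4 and 59.8 CPM. The groups overlapped by 1 library, CCI library 3 lying above sham library 1. The log2 fold change was −0.35 ± 0.07 (SE; edgeR adjusted p = 0.00811), with means of 77.2 ± 5.36 and 60.7 ± 6.40 CPM. Its family member Cplx1, the main form here, had a log2 fold change of −0.03 ± 0.07 (edgeR adjusted p = 0.951), from 1107 ± 127 to 1088 ± 31.6 CPM.

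Syn2 (chr6:115111825-115261708) encodes a synapsin of the reserve pool. Sham wild-type libraries held 186.3, 202.1, 210.5, 189.0 and 193.6 CPM. The CCI wild-type libraries held 165.5, 157.4, 184.9, 159.8 and 165.2 CPM. The groups did not overlap, although CCI library 3 came close to sham library 1. The log2 fold change was −0.24 ± 0.06 (SE; edgeR adjusted p = 0.0344). This call was lost when any of 7 single libraries was left out (sham 2, 3 or 5, or CCI 1, 2, 4 or 5), with adjusted p up to 0.1. Syn2 shares 1142 exon bases, 10.1% of its total, with Timp4 on the opposite strand, and without strand reads of the 2 genes cannot be told apart there. Timp4 itself went from 2.93 to 0.496 CPM (log2 fold change −2.56 ± 1.05, edgeR adjusted p = 0.276).

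Syt13 (chr2:92745339-92790093) encodes an atypical synaptotagmin without calcium binding. Sham wild-type libraries held 3.33, 2.74, 2.86, 4.54 and 2.49 CPM. The CCI wild-type libraries held 1.27, 1.31, 1.44, 1.83 and 1.47 CPM. All 5 injured libraries lay below all 5 sham libraries. The log2 fold change was −1.12 ± 0.27 (SE; edgeR adjusted p = 0.0172), so that this gene of low abundance fell by 54.1%. Leaving out sham library 4, or CCI library 1 or 2, took the adjusted p to 0.0529 or above, at most 0.07.

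Syt17 (chr7:117979934-118055470) encodes another atypical synaptotagmin, and was the only member called higher. Sham wild-type libraries held 1.44, 3.11, 4.00, 3.64 and 3.83 CPM. The CCI wild-type libraries held 4.69, 8.01, 5.3, 8.47 and 7.55 CPM. The groups did not overlap, and sham library 1 was the lowest of all 10. The log2 fold change was 1.08 ± 0.24 (SE; edgeR adjusted p = 0.0114), with means of 3.21 ± 1.04 and 6.80 ± 1.69 CPM. Syt13 and Syt17 thus moved in opposite directions by similar amounts, both at levels under 10 CPM.

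**Figure D2:**
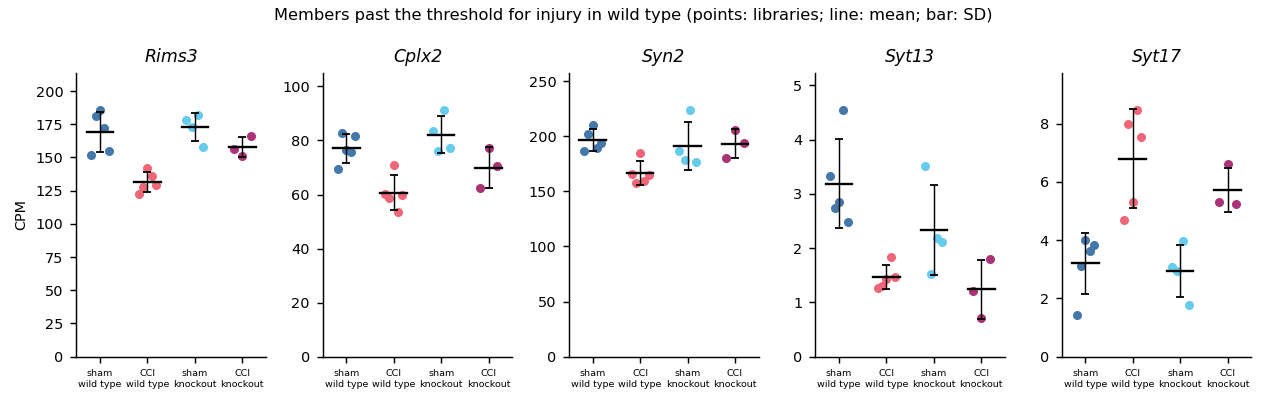
CPM of the 5 members called for injury in wild type, by group, with 1 point per library, the mean as a line and the SD as a bar; each panel has its own axis from 0. In wild type Rims3, Syn2 and Syt13 show every CCI point below every sham point and Syt17 the reverse, and Cplx2 overlaps by 1 library.

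The upstream stretches were searched on both strands for the CRE (TGACGTCA), its first 5 letters (TGACG), the AP-1 site (TGANTCA), the E-box (CACGTG) and the D-box (TTATGNAA). None of these was found in the 250 bases upstream of the 5 members called for injury. For Syt17 all 250 bases also lie within annotated Syt17 exons, so that stretch is not free of transcribed sequence. The GC box, added after the sequences had been seen, was found upstream of Rims3 and Syt13. Over all 54 members the GC box was upstream of 53.7%, beside 36.3% of 21707 promoters of protein-coding genes. TGACG was upstream of 33.3% of members and 18% of all, the E-box of 5.56% and 6.27%, the AP-1 site of 3.7% and 6.19%, the full CRE of 1.85% and 1.7%, and the D-box of 0% and 3.05%. TGACG lies within the full CRE, so these counts overlap, and a match is a description of letters only.

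The remaining 46 members did not pass the threshold for injury in wild type. Of the 51 tested, 34 had a log2 fold change within 0.2 of 0, and 15 had an unadjusted p under 0.05, beside 3306 of all 23972 tested genes. By role, the sign was negative for all 4 Munc13, all 4 Rab3, all 3 Sv2 and all 3 synapsin genes, and for 12 of 16 synaptotagmins. The Stxbp genes ran the other way, with 5 of 6 positive. SNARE genes were divided, 5 negative and 4 positive, with 8 of 9 within 0.2.

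Rims3, the most abundant RIM, fell as given above, while several other members that are the most abundant of their family stayed below the threshold. Vamp2, the vesicle SNARE, was at 941, 869, 1002, 891 and 853 CPM in sham and 866, 852, 964, 879 and 832 CPM in CCI wild type (log2 fold change −0.05 ± 0.06, edgeR adjusted p = 0.838). Its groups overlapped almost fully. Syt11 was at 1603, 1635, 1461, 1598 and 1525 CPM in sham and 1528, 1411, 1658, 1601 and 1568 CPM in CCI (−0.01 ± 0.05, edgeR adjusted p = 0.973). For these 2 genes the SE of 0.05 to 0.06 limits how small a change could have been seen. A change no larger than the SE would not have passed the threshold.

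Syn1, the main synapsin, was at 687 to 778 CPM in sham and 655 to 753 CPM in CCI wild type (log2 fold change −0.07 ± 0.06, edgeR adjusted p = 0.702). Rab3a was at 609 to 739 and 584 to 686 CPM (−0.12 ± 0.06, edgeR adjusted p = 0.366). Sv2c was at 208 to 228 and 191 to 216 CPM (−0.09 ± 0.05, edgeR adjusted p = 0.505). Each of the 3 had overlapping groups. Unc13a, the priming factor, lay nearer the threshold, at 62.9, 58.5, 57.4, 58.9 and 55.4 CPM in sham and 46.8, 50.3, 55.7, 47.2 and 46.0 CPM in CCI. Only CCI library 3 reached the sham range there (log2 fold change −0.25 ± 0.08, edgeR adjusted p = 0.0862). DESeq2, limma-voom and edgeR with no filter called Unc13a lower. Unc13a shares 16.7% of its exon bases with Colgalt1 on the opposite strand, whose log2 fold change was 0.01 ± 0.07 (edgeR adjusted p = 0.983).

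**Figure D3:**
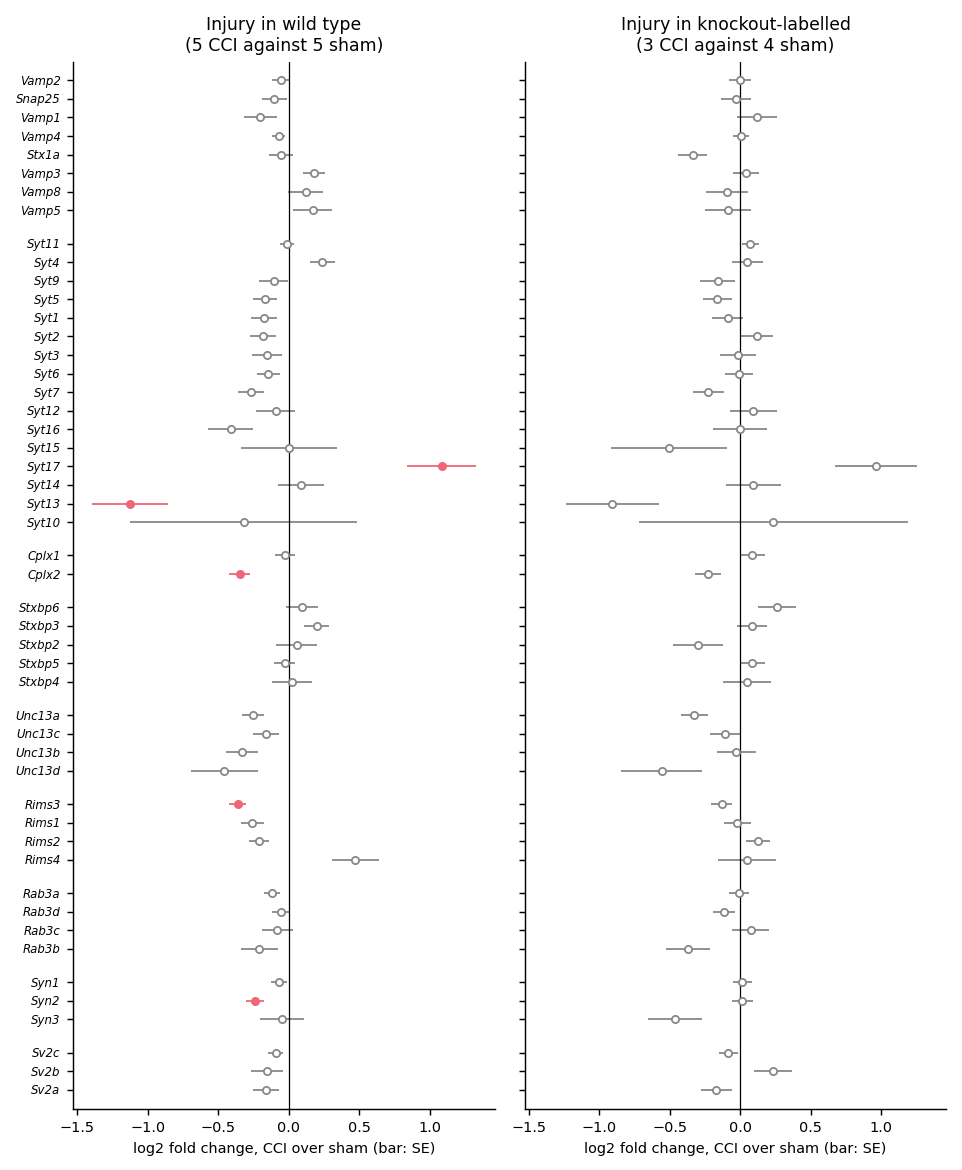
Log2 fold change of CCI over sham for 49 of the 51 tested members with SE bars, in wild type on the left and in the knockout-labelled libraries on the right, ordered by family; filled points passed the threshold. In wild type 5 points are filled and 37 lie left of 0, and in the knockout-labelled libraries no point is filled and 28 lie left of 0.

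In the knockout-labelled libraries 0 of 51 members passed the threshold for injury by edgeR, where 0.0834% of all tested genes did. At an unadjusted p under 0.05 there were 8 members, beside 2068 of all 23972 tested genes, and DESeq2 and limma-voom also called 0. This comparison rests on 3 against 4 libraries, and on the sham libraries 1 and 2 with raised Atf3. The median log2 fold change was −0.01, and 28 members were negative. None of the 12 axon injury genes passed here either, all being positive with a median of 0.75.

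The members called in wild type were followed one by one in the knockout-labelled libraries. Syt17 was at 3.07, 2.94, 3.96 and 1.79 CPM in sham and 5.32, 6.61 and 5.24 CPM in CCI, with no overlap (log2 fold change 0.96 ± 0.29, edgeR adjusted p = 0.274). Syt13 was at 3.51, 1.52, 2.19 and 2.12 CPM in sham and 1.22, 0.707 and 1.80 CPM in CCI, with CCI library 4 inside the sham range (−0.91 ± 0.33, edgeR adjusted p = 0.397). For both, the estimate lay within 1 SE of the wild-type value.

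Cplx2 was at 83.7, 76.2, 91.2 and 77.4 CPM in sham and 62.3, 77.2 and 70.4 CPM in CCI knockout-labelled libraries (log2 fold change −0.23 ± 0.09, edgeR adjusted p = 0.436). Rims3 was at 178, 173, 182 and 158 CPM in sham and 157, 151 and 166 CPM in CCI (−0.13 ± 0.07, edgeR adjusted p = 0.649). For each of these 2 genes the groups overlapped, with 2 of 3 CCI libraries below the sham range. Syn2 was at 186, 178, 224 and 177 CPM in sham and 179.97, 206 and 194 CPM in CCI, fully overlapping (0.01 ± 0.08, edgeR adjusted p = 0.989).

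The test of the difference between the injury effects, the interaction, called 0 of 51 members by edgeR, as it called 0 of 23972 genes, with 5 members and 1408 genes at an unadjusted p under 0.05. DESeq2 and limma-voom also called 0 members. The interaction was 0.25 ± 0.10 for Syn2 (edgeR adjusted p = 0.768) and 0.23 ± 0.09 for Rims3 (adjusted p = 0.809). It was 0.12 ± 0.12 for Cplx2, 0.22 ± 0.42 for Syt13 and −0.12 ± 0.38 for Syt17, all with an edgeR adjusted p of 0.966 or above. A call in wild type and none in the knockout-labelled libraries does not show that the injury effects differ.

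The second question is how the machinery differed between the genotype labels. Averaged over sham and CCI, 3 of 51 members were called, all lower in the knockout-labelled libraries: Vamp3, Vamp5 and Vamp8. This is 5.88% of the members, where 2.55% of all tested genes were called in either direction and 1.86% lower. As background, Vamp3 (cellubrevin) serves recycling endosomes, Vamp8 serves late endosomes and granules, and Vamp5 is known from muscle. The neuronal vesicle SNAREs Vamp1 and Vamp2, and Vamp4 of the trans-Golgi network, were not called by edgeR with the main settings. The median over all 51 members was 0.08, beside −0.000674 over all tested genes, and 35 members were positive.

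Vamp3 (chr4:151131757-151142433) was at 31.8, 35.1, 35.7, 35.2 and 38.4 CPM in sham wild type and 26.2, 30.3, 28.8 and 32.3 CPM in sham knockout-labelled libraries. After CCI it was at 43.1, 36.2, 39.3, 38.6 and 42.3 CPM in wild type and 31.5, 27.8 and 31.2 CPM in knockout-labelled libraries. In sham only library 4 of the knockout-labelled group reached the wild-type range, and after CCI the groups were apart. The mean genotype effect was −0.33 ± 0.06 (SE; edgeR adjusted p = 0.00162), with −0.26 ± 0.08 in sham (adjusted p = 0.121) and −0.40 ± 0.09 after CCI (adjusted p = 0.0233). Vamp3 was the only member called after CCI alone, lower, 1.96% of the members beside 0.684% of all tested genes in either direction and 0.501% lower. That single call was lost without CCI knockout-labelled library 2, 3 or 4, or CCI wild-type library 1 or 5, with adjusted p of 0.0647 to 0.237. The mean effect of Vamp3 passed under each of the 24 alternatives tried.

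Vamp5 (chr6:72345777-72357536) was at 8.78, 7.05, 9.17, 7.12 and 7.62 CPM in sham wild type and 5.49, 5.86, 5.73 and 6.99 CPM in sham knockout-labelled libraries. After CCI it was at 9.23, 9.46, 8.65, 6.74 and 10.6 CPM in wild type and 6.13, 5.45 and 5.41 CPM in knockout-labelled libraries. The groups did not overlap under either treatment, by a narrow gap in sham. The mean genotype effect was −0.53 ± 0.11 (SE; edgeR adjusted p = 0.00524), and it passed under each of the 24 alternatives.

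Vamp8 (chr6:72359012-72368482) lies next to Vamp5 on the same strand, 1475 bases away. It was at 10.04, 11.3, 9.30, 9.99 and 12.2 CPM in sham wild type and 7.93, 7.77, 8.61 and 10.6 CPM in sham knockout-labelled libraries. After CCI it was at 12.8, 12.1, 9.77, 10.2 and 12.5 CPM in wild type and 7.90, 7.41 and 9.16 CPM in knockout-labelled libraries. Sham knockout-labelled library 4 lay inside the wild-type range, while after CCI the groups were apart. The mean genotype effect was −0.38 ± 0.10 (SE; edgeR adjusted p = 0.0288). Without the sham knockout-labelled libraries 1 and 2 it was −0.31 ± 0.11 (edgeR adjusted p = 0.203), and it was also lost on leaving out any of 8 single libraries (sham knockout-labelled 1 or 2, CCI knockout-labelled 2 or 3, sham wild-type 5, or CCI wild-type 1, 2 or 5). Vamp5 and Vamp8 both share exon bases (296 and 199) with Gm52494 on the opposite strand, which averaged 0.133 CPM.

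Markers of myelinating Schwann cells moved in the same direction: 7 of 8 were lower for the mean genotype effect. Their summed level was 9764 to 13958 CPM in sham and 10530.1 to 14609 CPM in CCI wild type, against 4455 to 6329 and 5844 to 7192 CPM in the knockout-labelled groups, with no marker at 0 throughout. All 5 fibroblast markers were negative, 1 of them called (Col1a2), and all 6 endothelial markers were negative with 0 called. Sums of fibroblast markers were 745 to 1314 and 969 to 1866 CPM in wild type against 634 to 1130.5 and 777 to 864 CPM. Sums of endothelial markers were 60.3 to 106.8 and 84.3 to 106.0 CPM against 56.4 to 65.2 and 70.2 to 99.2 CPM. Of 2 tested melanocyte markers 1 was lower (Tyrp1), with sums over 4 genes of 15.3 to 23.2 and 14.7 to 17.99 CPM against 2.24 to 6.78 and 1.46 to 3.80 CPM. Of 6 satellite glia markers 1 was higher (Ptprz1) and 1 lower (Sox10), and sensory neuron markers held 0 calls. All 5 skeletal muscle markers were positive with 0 called and a median of 1.76. Their sums were 1.71 to 198.6 CPM in sham and 6.49 to 103.02 CPM in CCI wild type, against 3.91 to 943.8 and 148.2 to 264 CPM in the knockout-labelled groups. The part of these cell types in the Vamp differences was not tested.

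**Figure D4:**
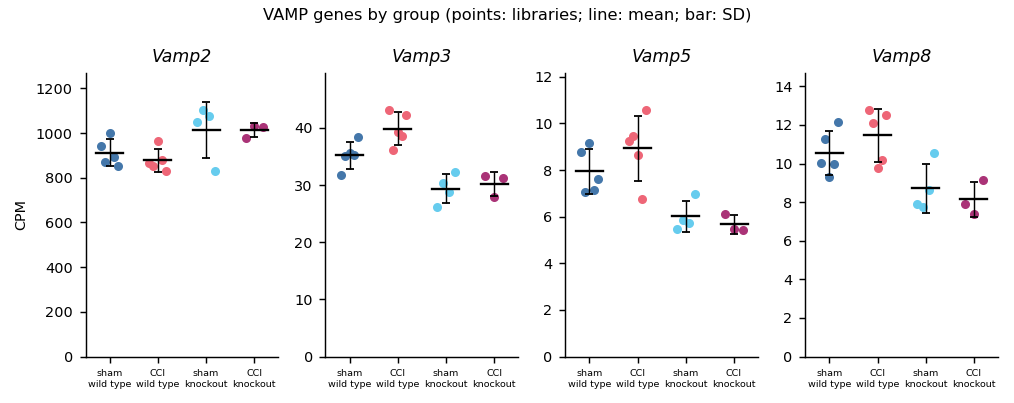
CPM of Vamp2, Vamp3, Vamp5 and Vamp8 by group, with 1 point per library, the mean as a line and the SD as a bar; each panel has its own axis from 0. The means of Vamp3, Vamp5 and Vamp8 lie lower in both knockout-labelled groups than in the wild-type group of the same treatment, and those of Vamp2 do not.

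Vamp2 was at 1049, 1102, 1075 and 828.6 CPM in sham and 977, 1034 and 1027 CPM in CCI knockout-labelled libraries, against 911 ± 60.8 and 878 ± 50.7 CPM in wild type. After CCI the groups were apart, and in sham library 4 was the lowest of all. Its mean genotype effect, 0.18 ± 0.05, narrowly missed the threshold (edgeR adjusted p = 0.051). With DESeq2's size factors in edgeR, no filter, a stricter filter, DESeq2's test or limma-voom, Vamp2 was called higher for the mean genotype effect. It was not called with the replicate number as a block. Without sham knockout-labelled libraries 1 and 2 it was not called either (0.14 ± 0.05, edgeR adjusted p = 0.246).

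In sham alone 0 of 51 members were called for genotype by edgeR, beside 0.259% of all tested genes called higher and 0.743% lower. There were 11 at an unadjusted p under 0.05, beside 1318 genes of all tested on the higher and 1424 on the lower side. DESeq2 and limma-voom each called 1 member (Syt4, higher), beside 621 and 289 genes of all tested. Leaving out sham knockout-labelled library 4 gave 5 members, beside 665 genes of all tested in place of 240. After CCI the groups of libraries were apart for 14 of 51 members (27.5%), beside 8.52% of all tested genes. Of these, 10 were higher in the knockout-labelled libraries (among them Rab3c, Rims3, Sv2b, Syt1, Syt2, Syt4, Syt9, Vamp2 and Vamp4), and 4 were lower (Vamp3, Vamp5, Vamp8 and Stxbp3). The shares over all genes were 4.15% higher and 4.37% lower. Of the 10, none passed the edgeR threshold, and the smallest adjusted p was that of Rims3 (0.26 ± 0.07, adjusted p = 0.0871), at 132 ± 7.47 CPM in wild type and 158 ± 7.68 CPM in knockout-labelled libraries.

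Over the module the median genotype effect after CCI was 0.10, beside −0.01 over all tested genes, and 38 of 51 were positive. The summed level of all members was 10831 ± 411 CPM (SD, n = 5) in CCI wild type. In the CCI knockout-labelled libraries it was 11772 ± 203 CPM (n = 3), with ranges of 10356 to 11463 and 11548 to 11944 CPM that did not overlap. In sham the sums were 11350 ± 545 (n = 5) and 11617 ± 406 CPM (n = 4) and overlapped. Beside this, the sensory neuron markers summed to 14807 to 16071 and 15654 to 17559 CPM in the CCI groups, with 9 of 10 positive and 0 called. Their part in these differences was not tested. The 3 CCI knockout-labelled libraries are the smallest group, and the number in the table names differs between the CCI groups, so that it and genotype cannot be told apart here.

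Syt4, chosen for description after its values were seen, moved with the injury gene Atf3 in the sham libraries that stood apart. It was at 299, 289, 331, 335 and 296 CPM in sham wild type and 373, 381, 351, 378 and 346 CPM in CCI wild type, with no overlap. Sham knockout-labelled libraries 1 and 2 held 441 and 478 CPM, and libraries 3 and 4 held 330.4 and 319 CPM. The CCI knockout-labelled libraries held 419, 382 and 417 CPM. Libraries 1 and 2 were thus the second highest and the highest of all 17, and libraries 3 and 4 lay within the sham wild-type range. Injury in wild type gave 0.24 ± 0.09 (edgeR adjusted p = 0.2). With all 17 libraries, injury in knockout-labelled libraries gave 0.05 ± 0.11 (edgeR adjusted p = 0.963). Without the sham knockout-labelled libraries 1 and 2, injury gave 0.24 ± 0.05 in wild type (edgeR adjusted p = 0.00431). There the estimate was nearly unchanged and the SE was smaller. In knockout-labelled libraries, now 3 against 2, injury gave 0.32 ± 0.07 (adjusted p = 0.0363). The 2 libraries left out were those highest in Syt4, so this call follows from leaving them out and is no support for an injury effect. Without those libraries Unc13a was also called lower in wild type (−0.25 ± 0.07, edgeR adjusted p = 0.0474), which brought the members called for injury to 7, while calls over all genes went from 733 to 980.

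**Figure D5:**
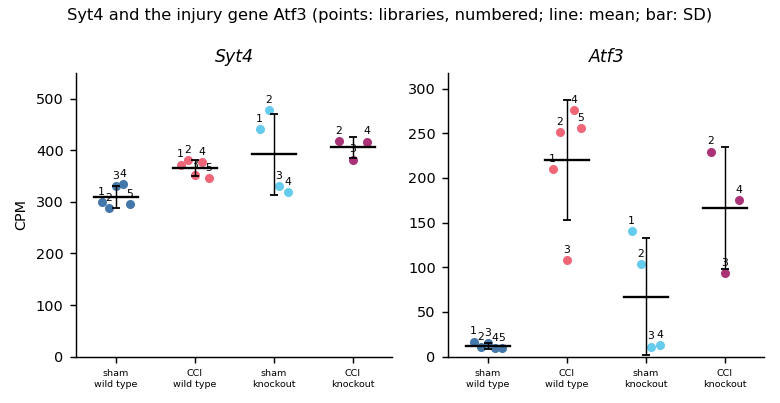
CPM of Syt4 and of the nerve-injury gene Atf3 by group, with 1 numbered point per library, the mean as a line and the SD as a bar; both axes start at 0. Sham knockout-labelled libraries 1 and 2 lie high in both panels, while libraries 3 and 4 lie with the sham wild-type libraries.

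Other genes of the vesicle cycle were read from 5 lists. For injury in wild type, 3.06% of all 23972 tested genes were called, 2.34% higher and 0.713% lower. Among 20 tested fusion partners, injury in wild type raised Sytl2, a synaptotagmin-like Rab27 partner (log2 fold change 0.30 ± 0.08, edgeR adjusted p = 0.0255), and lowered Rph3a, rabphilin, a Rab3 effector (−0.39 ± 0.07, adjusted p = 0.00343). The other 18 were not called. Among 16 active zone genes 2 fell, the scaffold Pclo (−0.30 ± 0.06, edgeR adjusted p = 0.00223) and the adhesion receptor Nrxn3 (−0.36 ± 0.07, adjusted p = 0.0019). Of that list 12 were negative, with a median of −0.14.

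Among 18 endocytosis genes Cltb (0.20) and Sh3gl1 (0.21) rose and Dnm3 (−0.22) fell, with edgeR adjusted p of 0.0112, 0.0499 and 0.0416. They encode a clathrin light chain, an endophilin and a dynamin. None of 11 tested genes of the vesicle membrane and transmitter loading, nor of 11 dense-core vesicle genes, was called by edgeR for injury in wild type. For injury in the knockout-labelled libraries 0 genes of the 5 lists were called, where only 0.0834% of all tested genes were.

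For genotype after CCI, 3 genes of these lists were called, where 0.684% of all tested genes were. They are named after their values were seen. Nrxn3 was higher in the knockout-labelled libraries (0.45 ± 0.08, edgeR adjusted p = 0.00503). Scg2, a granin of dense-core vesicles, was also higher (0.43 ± 0.08, adjusted p = 0.00801). Sh3gl1 was lower (−0.32, edgeR adjusted p = 0.0229). Nrxn3 and Sh3gl1 had the opposite sign for injury in wild type, but both contrasts share the CCI wild-type libraries. For the mean genotype effect, the fusion partners Napb (0.15 ± 0.04, edgeR adjusted p = 0.0214) and Cadps (0.14 ± 0.04, adjusted p = 0.0394) were called higher. Nrxn3, Scg2 and Cltc were also called higher and Sh3gl1 lower, where 2.55% of all tested genes were called in either direction.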

How the data were processed

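The labels' protocols name a PicoPure kit for RNA isolation and SMART-Seq v4 for amplification, which does not mark strand. Per the submitters' processing notes, the authors used bcl2fastq 2.20.0.422 and STAR 2.7.11a with genome build GRCm39. The deposited counts are labelled htseqcount. The sources used here do not give the version of the counter, its strand setting or the annotation release. The authors deposited raw counts of reads for each gene. The 5 summary lines of each table, of which no-feature reads were 4.03 to 4.55% and ambiguous reads 7.63 to 8.17%, were left out. Symbols, coordinates and exon lengths came from GENCODE M39, which matched 78168 of 78298 identifiers; upstream sequences were read from the GRCm39 genome. Vamp7 matched 0 identifiers.

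Counts of 52.5 to 73.6 M per library were scaled by TMM (factors 0.983 to 1.03). Low counts were filtered with filterByExpr (groups as given, at least 10 counts and 15 in total), and 23972 of 46200 genes with counts entered edgeR's quasi-likelihood F test. A group-mean model was fitted to the 17 libraries, with 13 residual degrees of freedom. Benjamini-Hochberg adjustment ran over all tested genes and 6 comparisons were made, each at 0.05. Members were read out of this fit. The SE of an edgeR log2 fold change is its absolute value divided by the square root of F. Members were picked by a rule: Syt13, members called in any comparison and the member of highest CPM per kb in each family, 16 in all. Most of those described are given per library, and Cplx1, Syn1, Rab3a and Sv2c as means or ranges. Syt4, also given per library, was not picked by this rule. Values of some members are not reported here. Other genes of the pathway were named by smallest p for injury in wild type, at most 3 per list. Those called for genotype were named after their values were seen. Alternatives were DESeq2's size factors, no filter, a stricter filter (1 CPM in 5 libraries), DESeq2's test, limma-voom with quality weights, the replicate number as a block, each library left out, and sham knockout-labelled libraries 1 and 2 left out together. On simulated counts of 22887 genes for injury in wild type, 62.7% of 1.5-fold, 77.6% of 2-fold and 97.0% of 4-fold changes were recovered. The changed genes were drawn from those above 1 CPM, and 9 unchanged genes were called. Changes under 1.5-fold, such as the falls of Rims3, Cplx2 and Syn2, were not simulated. Software was R 4.3.3, edgeR 4.0.16, limma 3.58.1, DESeq2 1.42.0 and Python 3.11.15. Members, lists and tests were chosen with earlier results of these data known.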

Additional observations from a re-analysis of the deposited data

Results flagged for a closer look

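For the 16 members picked by rule, each group of 4 or 5 libraries was examined for a library far from the rest of its group. This gave 48 sets of a member and a group. Of these, 2 held such a library, where chance gives about 1 in 20, and both were the sham knockout-labelled library 4. Syt11 was at 1480.5 CPM there, against 1681 to 1716 CPM in libraries 1 to 3. Sv2c was at 196 CPM there, against 233 to 240.1 CPM. Without this library 5 members were called for genotype in sham, 4 higher (Stx1a, Syt4, Syt9 and Vamp2) and 1 lower (Vamp3), while calls over all genes went from 240 to 665.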

How the results depend on the processing

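Each result was recomputed under 24 alternatives, 17 of them leaving out 1 library. Members called for injury in wild type (5) numbered 8 with no filter and 9 with limma-voom. With single libraries left out they numbered 3 to 7, 3 being without CCI library 1 or 2. Calls over all genes, 733 in the main fit, were 1301 with no filter and 1192 with limma-voom. They were 423 to 998 with single libraries left out. For injury in knockout-labelled libraries (0) there were 3 with no filter and 1 without sham libraries 1 and 2 together. With single libraries left out there were 0 to 1. Calls over all genes, 20 in the main fit, were 224, 147 and 0 to 43 in that order. For genotype in sham (0) there were 2 with no filter, 1 with DESeq2, 1 with limma-voom, and 0 to 5 with single libraries left out. Calls over all genes, 62 higher and 178 lower in the main fit, were 702, 621, 289 and 88 to 665 in that order. For genotype after CCI (1) there were 5 with no filter, 2 with the stricter filter, 4 with DESeq2 and 5 with limma-voom. There were 0 with the replicate block, and 0 to 2 with single libraries left out. Calls over all genes, 164 in the main fit, were 452, 179, 405, 439, 91 and 18 to 229 in that order. For the mean genotype effect (3) there were 7 with no filter, 5 with the stricter filter, 6 with DESeq2 and 8 with limma-voom. Calls over all genes, 612 in the main fit, were 1112, 718, 992 and 1074 in that order. With single libraries left out there were 2 to 8 members, beside 396 to 995 genes of all tested. Of these, 8 members (995 genes) were without sham knockout-labelled library 4, and 6 members (593 genes) without sham wild-type library 3. The interaction called 0 under all 24. The causes were not tested. Rims3, Cplx2 and Syt17 kept their calls for injury in wild type under all 24, with adjusted p up to 0.00409, 0.0354 and 0.043. Without filter, Syt17 was also called for injury in knockout-labelled libraries (0.96, adjusted p = 0.0128). Signs reversed only where no test had passed. Syn2 for injury in knockout-labelled libraries was −0.051 without sham libraries 1 and 2, and −0.037 to 0.094 with single libraries left out. With single libraries left out, the interaction of Syt13 ran from −0.16 (without CCI knockout-labelled library 4) to 0.49, and that of Syt17 from −0.30 to 0.061 (without sham wild-type library 1). Libraries with the same number deviated together weakly at most. Over 22 pairs the correlation was −0.01 to 0.12, 1 of them over 0.1, with a median of 0.022 beside −0.006 for other pairs. Pairs among libraries numbered 3 were all positive (0.034 to 0.118), while those numbered 1 ran from −0.013 to 0.030. Of 17 libraries, 6 correlated best with their own number. With the replicate block, calls were 6 for injury in wild type, 0 for injury in knockout-labelled libraries, 0 for genotype in sham and 2 for the mean genotype effect. Calls over all genes with it were 775, 46, 139 and 402 in that order. Vamp3 after CCI (adjusted p = 0.0703) and Vamp8 for the mean effect (adjusted p = 0.123) were not called with the replicate block. Depth limits the lowest members: Syt10 had an SE of 0.81 for injury in wild type, and 3 members could not be tested.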
